A study of Mus musculus with 36 samples.

Results

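The receptor chains for the gamma-chain cytokines were followed through their chromatin. The genes were Il2ra, Il2rb, Il4ra, Il7r and Il21r, and the measurement was the assay for transposase-accessible chromatin with sequencing (ATAC-seq), in which a peak is a stretch of DNA open to the transposase and its read count measures how open it was. A peak was taken as a member if its midpoint lay nearer to a protein-coding transcription start site (TSS) of one of the 5 genes than to that of any other gene, or if it overlapped the gene body (mouse GENCODE annotation, build GRCm39). This rule used position only, and it gave 68 of the 71509 peaks: 16 at Il2ra, 8 at Il2rb, 8 at Il4ra, 20 at Il7r and 17 at Il21r, with 1 peak shared by the neighbouring genes Il4ra and Il21r.

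The 5 proteins are receptor chains that pair with the common gamma chain, encoded by Il2rg, or that share it with another chain. Il2ra (CD25) raises the affinity of the receptor for IL-2, Il2rb (CD122) carries the signal of both IL-2 and IL-15, Il7r (CD127) receives the survival signal of IL-7 in resting T cells, and Il4ra and Il21r receive IL-4, which favours the Th2 fate, and IL-21. Signals pass through the kinases Jak1 and Jak3 to STAT transcription factors. In CD4+ T cells, Il2ra and Il2rb are known to be induced by antigen, whereas Il7r marks naive and memory cells. HP1α and HP1γ (HP1a and HP1g in the sample labels) are proteins that bind methylated histone H3 in heterochromatin and take part in gene silencing.

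The 36 libraries made 12 groups of 3: for each of the HP1α and HP1γ mouse lines, wild-type (WT) and knockout (KO) cells as naive CD4+ T cells, as conventional T cells (Tconv) after an allograft, and as Tconv from hosts that also received regulatory T cells (TconvTreg in the labels, written Tconv + Treg here). In the HP1α line the floxed allele had been excised by CMV-cre, so every cell of the KO mice lacked it, and controls were littermates of a heterozygous intercross. In the HP1γ line excision was by Cd4-cre, so it began during T cell development, and controls carried the floxed allele without Cre. Both lines were on a mixed 129/Sv and C57BL/6 background, and donors were adult littermates matched for sex. Naive CD4+CD62L+CD44low cells came from spleen. For the other groups such cells were injected, alone or with WT Treg expanded ex vivo, into lethally irradiated C57BL/6 hosts grafted with T cell-depleted marrow from C57BL/6 and semi-allogeneic B6D2F1 donors, and 3 weeks later the Vβ6+ cells, which recognise a superantigen of the graft, were sorted without the transferred Treg. The Treg of every host were thus WT, and KO referred to the responding cells only. The labels do not say whether the 3 libraries of a group came from separate mice, so p-values measure only the spread between libraries, which may be technical.

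Depth was 1.49 to 96.8 M reads in peaks (median 54.8 M). The study did not use 3 libraries, which it judged to be of low quality: HP1α WT Tconv + Treg replicate 3 and HP1α KO Tconv + Treg replicates 2 and 3. They held 3.20 to 7.12 M reads, and 44.6 to 46.8% of these lay within 1 kb of a coding TSS against 50.3 to 56.6% in the 33 others. The HP1α KO Tconv + Treg group was therefore a single library of 50.7 M reads set against 2 WT libraries of 12.7 and 1.49 M, and its results are given with and without the 3 libraries. In the HP1γ line every library was used (19.4 to 90.3 M reads). All 6 CD4+ T cell markers had a peak over the TSS, whereas none of the B cell genes Cd79a, Ms4a1 and Pax5 or the NK cell genes Ncr1 and Klrb1c had one, nor did Foxp3, the defining Treg gene, or Cd8a. The other CD8 T cell marker, Cd8b1, had one, at 4.88 to 5.17 log2 CPM in naive cells, 1.44 to 3.12 in Tconv and 1.92 to 3.40 in Tconv + Treg. The other Treg markers also had one, Ikzf2 at 4.87 to 6.56 and Ctla4 at 5.87 to 7.5 over all libraries. So did the myeloid marker Itgam, at -0.08 to 2.85. From naive cells to Tconv the naive-cell marker Ccr7 went from 8.39 to 8.88 down to 6.68 to 7.17 log2 CPM, and the effector gene Ifng from 0.80 to 1.86 up to 5.37 to 6.19. The targeted genes could not be checked at their TSS peaks, which stayed open in KO: Cbx5, which encodes HP1α, stood at 6.02 to 7.65 in HP1α KO and 6.33 to 8.02 in WT, and Cbx3, which encodes HP1γ, at 7.46 to 7.60 in HP1γ KO and 7.30 to 7.62 in WT. The peak at Cd4, whose promoter drives Cre in HP1γ KO mice, stood at 9.0 to 9.51 there and at 6.33 to 6.89 in HP1γ WT.

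Levels below are log2 counts per M reads in peaks (log2 CPM), and differences are log2 fold changes with their standard error (SE), where 1 is a doubling. A peak was called when edgeR gave an adjusted p below 0.05 over all peaks and an absolute log2 fold change above 1. A share of members called has to be read against the share of all peaks called in the same comparison, which is given beside it. Counts from fits by another method or with 1 library left out at a time are given without that share. They show only how the count moved.

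Il2ra lies at chr2:11647618-11698004 on the forward strand, Il2rb at chr15:78363456-78395566 and Il7r at chr15:9505874-9530262, both on the reverse strand, and Il4ra (chr7:125151079-125182844) and Il21r (chr7:125202601-125232756) follow each other on the forward strand. Each gene had a peak over its main TSS. At Il7r 17 of 20 peaks lay outside the gene body, up to 93.3 kb upstream. At Il2ra 14 of 16 overlapped it, most in intron 1, and the last 4, in intron 7 and the last exon, were nearer to the TSS of the next gene, Il15ra. The central 300 bp are shown for 4 peaks on which the results turn: an intronic Il2ra peak that opened after the graft, an upstream Il7r peak that did the same, the upstream Il7r peak most accessible on average over all libraries, and an Il2rb peak that differed with genotype and Treg. Sequences are from GRCm39, forward strand. Capitals mark the letters of STAT (TTCNNNGAA), AP-1 (TGANTCA), RUNX (TGTGGT), FOXO (GTAAACA), T-box (GGTGTGA) and TCF (CTTTGAT) motifs found on either strand.
Il2ra, 2.7 kb downstream of the TSS, chr2:11650126-11650425: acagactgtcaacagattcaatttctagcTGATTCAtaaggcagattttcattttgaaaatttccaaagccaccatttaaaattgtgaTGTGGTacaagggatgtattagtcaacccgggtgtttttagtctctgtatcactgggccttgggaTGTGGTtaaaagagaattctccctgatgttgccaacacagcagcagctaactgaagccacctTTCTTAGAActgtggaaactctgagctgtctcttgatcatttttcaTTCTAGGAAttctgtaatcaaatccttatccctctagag
Il7r, 26.3 kb upstream, chr15:9556081-9556380: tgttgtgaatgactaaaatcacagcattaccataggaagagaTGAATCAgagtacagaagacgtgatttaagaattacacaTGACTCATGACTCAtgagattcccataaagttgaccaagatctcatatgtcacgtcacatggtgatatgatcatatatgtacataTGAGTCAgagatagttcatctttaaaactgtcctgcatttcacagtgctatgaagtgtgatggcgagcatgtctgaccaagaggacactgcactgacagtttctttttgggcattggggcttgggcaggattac
Il7r, 51.2 kb upstream, chr15:9581001-9581300: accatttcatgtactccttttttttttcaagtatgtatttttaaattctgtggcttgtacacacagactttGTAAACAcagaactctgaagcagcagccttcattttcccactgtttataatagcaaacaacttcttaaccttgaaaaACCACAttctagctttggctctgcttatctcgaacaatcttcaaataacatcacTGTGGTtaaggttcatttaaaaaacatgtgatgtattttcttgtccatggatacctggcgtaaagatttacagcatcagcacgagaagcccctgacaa
Il2rb, 7.3 kb upstream, chr15:78386661-78386960: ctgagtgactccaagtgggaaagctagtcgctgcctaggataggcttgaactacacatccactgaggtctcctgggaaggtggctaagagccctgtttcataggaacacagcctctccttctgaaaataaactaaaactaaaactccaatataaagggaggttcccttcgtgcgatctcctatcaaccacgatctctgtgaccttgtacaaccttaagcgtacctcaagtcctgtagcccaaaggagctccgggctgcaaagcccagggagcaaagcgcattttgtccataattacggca

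The Il2ra window held 5 of these short motifs, 2 of them STAT, while the window 26.3 kb upstream of Il7r held 4 AP-1 motifs. The window 51.2 kb upstream of Il7r held 2 RUNX motifs and 1 FOXO motif, and the Il2rb window held none of the 6. Over the same 300-bp centres of all peaks, AP-1 letters occurred in 13.0% and in 14 of the 68 members (20.6%), RUNX in 30.0% and 19 members (27.9%), STAT in 8.89% and 5 members (7.35%), FOXO in 4.34% and 4 members (5.88%), T-box in 5.58% and 3 members (4.41%), and TCF in 5.76% and 1 member (1.47%). A match describes letters and is not evidence of binding.

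The level of the TSS peaks differed between the genes before any comparison. Per kb of peak, the Il7r TSS peak stood at 4.37 log2 CPM per kb in HP1α WT naive cells and 3.53 in Tconv, while Il2rb went from 2.60 to 4.45. Il2ra (4.19 and 4.23), Il4ra (4.15 and 3.79) and Il21r (3.62 and 3.78) were closer to level. That did not hold in HP1γ WT cells, where Il7r went from 4.26 to 3.86, less than Il2ra (4.11 to 4.70) and Il21r (3.55 to 4.29). There Il4ra went from 3.98 to 4.17 and Il2rb from 2.92 to 5.05. In the HP1γ line the order of the Il7r TSS peak ran from KO naive (6.54 ± 0.13 log2 CPM, SD, n = 3) and WT naive (6.47 ± 0.05) through WT Tconv (6.07 ± 0.13), WT Tconv + Treg (5.89 ± 0.21) and KO Tconv (5.63 ± 0.29) to KO Tconv + Treg (4.85 ± 0.39). The ranges of the naive groups overlapped each other, as did those of WT Tconv with WT Tconv + Treg and of the latter with KO Tconv, whereas KO Tconv + Treg lay below all others. For Il2rb the 4 graft groups of the line (6.92 to 7.25 on average) overlapped in steps, and both naive groups lay below them, WT at 5.13 ± 0.02 and KO at 4.85 ± 0.10.

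**Figure D1:**
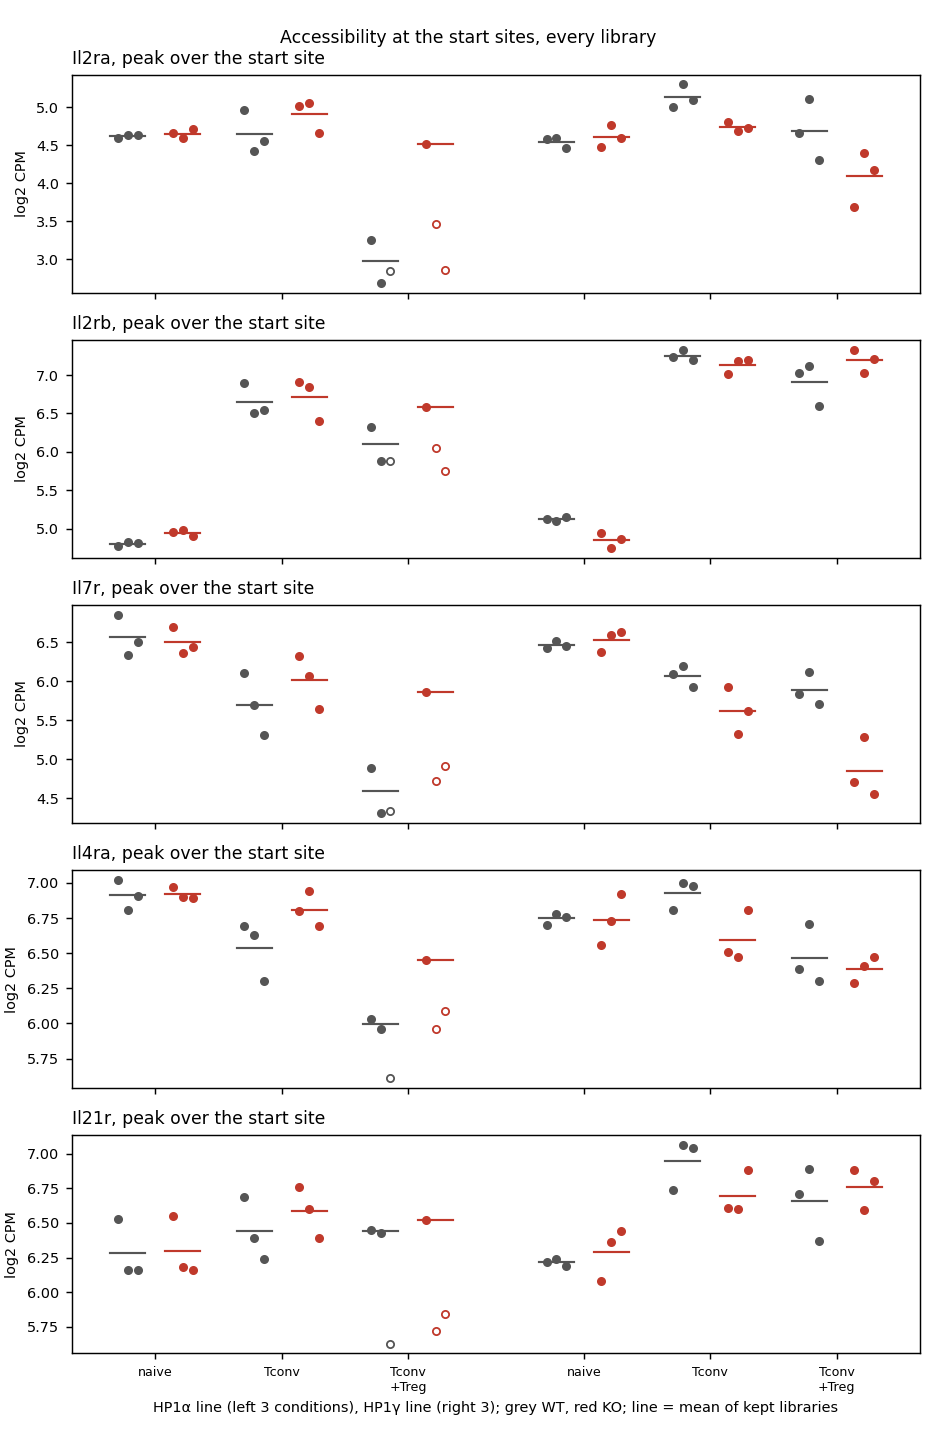
Accessibility (log2 CPM, vertical axis) of the peak over the TSS of each of the 5 genes in every library, with the HP1α groups on the left and the HP1γ groups on the right of each panel. Points are libraries, open symbols are the 3 left out by the study, and lines are means of the libraries kept. Il2rb rose from naive cells to Tconv in both lines, and the means of Il7r were lowest in HP1α WT Tconv + Treg (4.31 and 4.89 in the kept libraries) and in HP1γ KO Tconv + Treg (4.55 to 5.29).

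Across TSS peaks, patterns over the 12 group means were compared by Pearson's r with 10729 other TSS peaks of coding genes, some of which serve more than 1 gene. The genes most like Il2rb were Tnfrsf9 (r = 0.994), Mt1 (0.991) and Atp2b4 (0.990), and those most like Il7r were Slfn8 (0.975), Ms4a4b (0.972) and Lgals9 (0.971). Oas3 (0.983), Cgas (0.976) and Grap (0.974) were most like Il2ra, Slco3a1 (0.978), Rai1 (0.977) and Tet3 (0.976) most like Il4ra, and Adss1 (0.966), Gng2 (0.962) and Kctd11 (0.961) most like Il21r. Among the members, Il2rb went with Il21r (r = 0.904) and against Il7r (r = -0.606). The points share libraries, so these values describe the pattern only.

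The first comparison set Tconv after the graft against naive cells at these loci. Tconv had been transferred into irradiated hosts and then sorted for Vβ6, whereas naive cells came from spleen. The effect of activation cannot be told apart from that of these differences. In WT cells peaks at both IL-2 receptor genes opened, and upstream of Il7r a few peaks opened and a few closed. Of the 5 TSS peaks only that of Il2rb was called. Of the 68 members, 18 rose and 8 fell in the HP1α line (38.2%, against 42.5% of all peaks, of which 24.9% rose and 17.5% fell), and 17 rose and 7 fell in the HP1γ line (35.3%, against 46.5%, with 24.5% up and 22% down). In KO cells 17 rose and 6 fell in the HP1α line (42.6% of all peaks, 23.5% up and 19% down), and 16 rose and 10 fell in the HP1γ line (43% of all peaks, 22.4% up and 20.6% down). The members were thus called no more often than peaks at large in any of the 4. The genes differed in their counts. Il2rb had 7 of 8 peaks higher in HP1α WT and 8 of 8 in HP1γ WT, Il2ra 8 of 16 and 7 of 16, Il7r 2 of 20 in both, Il21r 1 of 17 and 0 of 17, and Il4ra none of 8.

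At Il2rb, the shared IL-2 and IL-15 chain, the strongest opening was 16.3 kb upstream of the main TSS (chr15:78393861-78397730), in a peak that overlapped the 5′ end of the gene as spanned by its longer transcripts and ran beyond it. The 3 HP1γ WT naive libraries read 1.35, 0.93 and 1.03 log2 CPM there and the Tconv libraries 5.75, 5.97 and 6.09. All Tconv libraries stood far above all naive ones, a log2 fold change of 4.93 (SE 0.23, adjusted p = 2.88e-12, edgeR). In the HP1α line the change was 3.89 (SE 0.19, adjusted p = 8.59e-11). The peak 7.3 kb upstream rose by 3.99 in HP1γ WT (SE 0.31) and by 2.90 in HP1α WT (SE 0.19). The TSS peak, chr15:78376041-78380650, rose less, from 5.13, 5.10 and 5.15 to 7.23, 7.33 and 7.2 in HP1γ WT (log2 fold change 2.19, SE 0.10, adjusted p = 4.31e-12). The largest region, an 8050-bp peak at the 3′ end that also lies nearest to the TSS of Tmprss6, rose by 1.29 (SE 0.09).

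At Il2ra, the inducible chain of the high-affinity IL-2 receptor, the TSS peak moved little and its surroundings moved much. The TSS peak (chr2:11646811-11648160) changed by 0.16 in HP1α WT (adjusted p = 0.352) and by 0.65 in HP1γ WT (SE 0.16, adjusted p = 0.0011), short of the fold threshold. The intron 1 peak shown above, 2.7 kb downstream, read 0.17, -0.27 and -0.24 in HP1γ WT naive cells and 3.58, 3.75 and 3.39 in Tconv. All Tconv libraries stood well above all naive ones, at a log2 fold change of 3.82 (SE 0.28, adjusted p = 6.4e-10), and of 3.53 in HP1α WT (SE 0.27, adjusted p = 6.91e-09). The peak over the 3′ end, 50.4 kb downstream and nearest to Il15ra, had the largest change among members, 5.37 in HP1γ WT (SE 0.53, adjusted p = 3.5e-08) and 5.15 in HP1α WT (SE 0.33). The most accessible Il2ra peak, 5580 bp of intron 1 centred 10.6 kb downstream, was already open in naive cells (6.86, 6.84 and 6.82) and was about as open in Tconv (7.0, 7.10 and 6.75; log2 fold change 0.18, adjusted p = 0.189). Upstream, neighbours went opposite ways: the peak 19.2 kb upstream (chr2:11628041-11628810) rose by 2.35 in HP1γ WT (SE 0.29), while the peak 6.5 kb upstream (chr2:11639491-11642680) fell by 1.41 (SE 0.19, adjusted p = 1.77e-06).

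At Il7r, the IL-7 receptor of resting T cells, 2 peaks opened and 4 closed in HP1α WT, and 2 opened and 3 closed in HP1γ WT, shares that were no higher than among all peaks in the HP1γ line and, for all calls together, in the HP1α line. The peak 45.3 kb upstream, among its most accessible in naive cells, read 6.15, 6.06 and 6.16 in HP1γ WT naive libraries and 4.97, 4.84 and 4.53 in Tconv. It fell by 1.27 (SE 0.18, adjusted p = 3.96e-06) and in HP1α WT by 1.49 (SE 0.23, adjusted p = 2.73e-05). The peaks 81.2 kb and 59.4 kb upstream fell by 2.16 (SE 0.24) and 1.92 (SE 0.30). In contrast, the AP-1-bearing peak 26.3 kb upstream (chr15:9556071-9556390) went from -2.35, -2.20 and -2.98 to 1.91, 0.84 and -1.18. Its Tconv libraries ranged widely, on 20 to 236 reads, but all lay above the naive ones (log2 fold change 3.97, SE 0.62, adjusted p = 6.65e-06, and 3.37, SE 0.49, in HP1α WT). The peak 40.2 kb upstream also rose, by 1.82 (SE 0.29). The TSS peak (chr15:9526221-9530850) changed by -0.70 in HP1α WT (adjusted p = 0.00504) and by -0.33 in HP1γ WT (adjusted p = 0.0559), below the fold threshold in both. The peak 51.2 kb upstream did not share in the closing (0.33, SE 0.27, adjusted p = 0.278, in HP1γ WT).

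Il4ra, the IL-4 receptor chain, and Il21r, the IL-21 receptor, had few calls. The Il4ra peaks 9.9 kb and 8.3 kb upstream fell by 1.32 (SE 0.18) and 1.83 (SE 0.24) in HP1γ WT and by 1.36 and 1.73 in HP1α WT. The Il4ra TSS peak was already among the most open (6.70, 6.78 and 6.76 in HP1γ WT naive cells, 6.81, 7.0 and 6.98 in Tconv; log2 fold change 0.25, adjusted p = 0.051). At Il21r the peak over exon 3, 21.9 kb downstream, fell by 1.22 (SE 0.17) in HP1γ WT and 1.05 (SE 0.20) in HP1α WT, and the peak 7.9 kb downstream rose in HP1α WT (1.25, SE 0.31). The Il21r TSS peak rose by 0.81 in HP1γ WT (SE 0.12, adjusted p = 1.2e-05) without reaching the fold threshold.

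**Figure D2:**
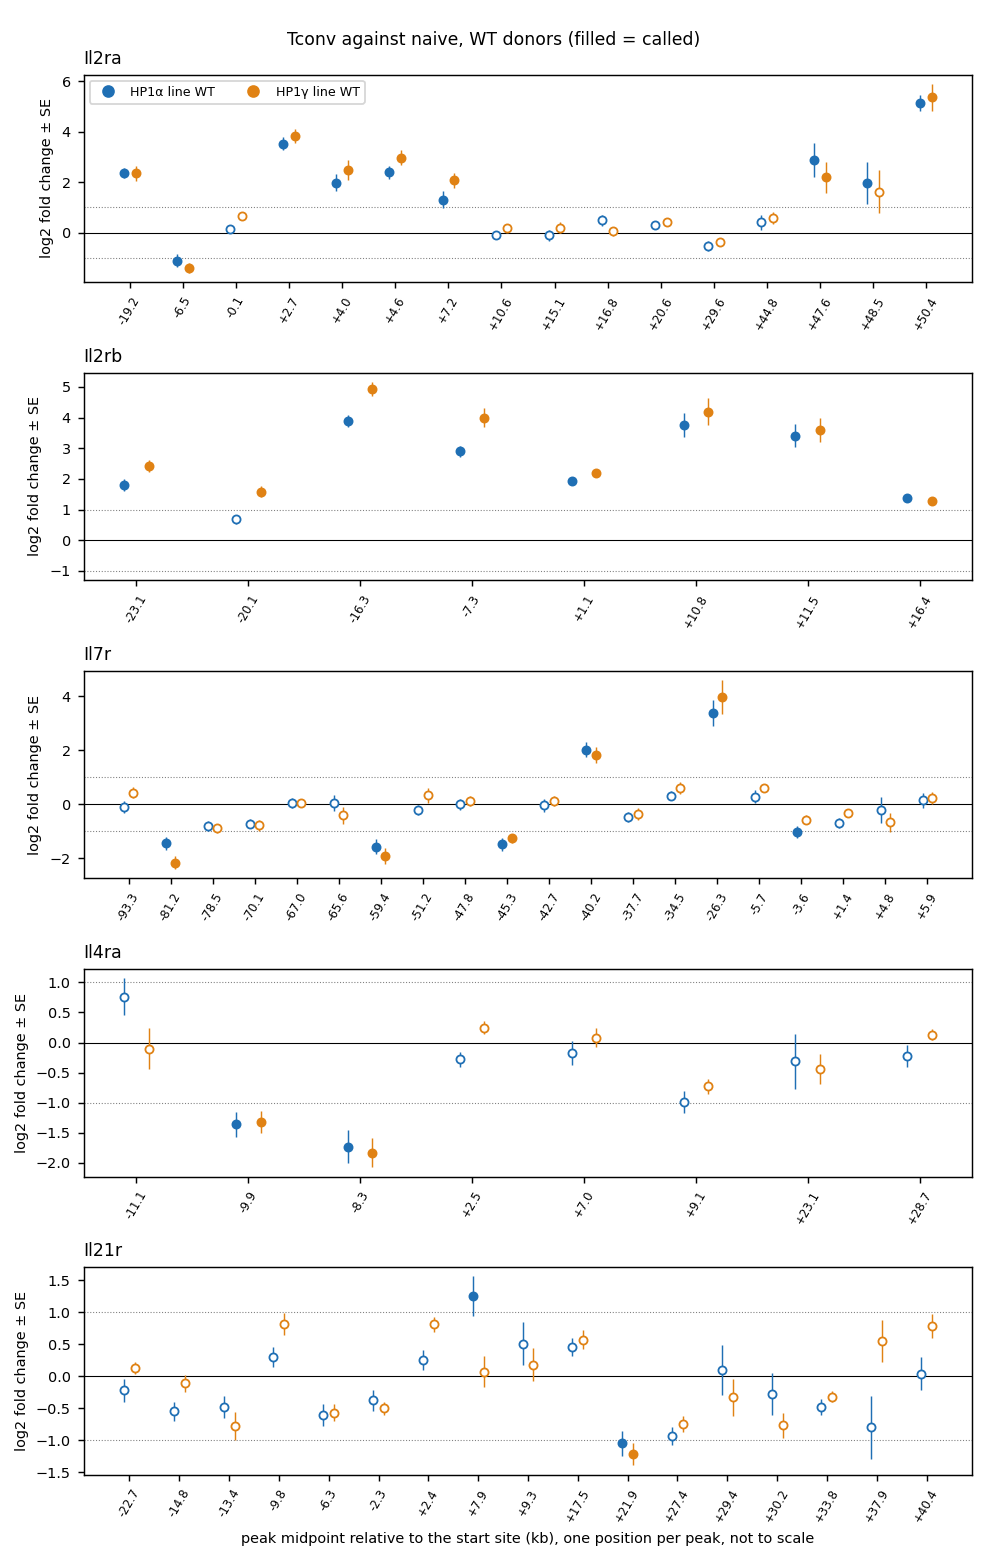
Log2 fold change of Tconv over naive WT cells (vertical axis, bars are SE) at each member peak, in order along each gene, for the HP1α and HP1γ lines. Filled symbols passed the call. Il2rb rose at 7 (HP1α) and 8 (HP1γ) of its 8 peaks, Il2ra rose most at its 3′ end (5.15 and 5.37), and Il7r had peaks on both sides of 0.

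The second comparison, Tconv + Treg against Tconv, asked what exposure to Treg did. In WT cells of the HP1γ line no member was called by edgeR (0.137% of all peaks were), with 19 at an unadjusted p below 0.05 and none called by DESeq2. The median over members was -0.17, against 0.03 for all peaks. In HP1α WT, 8 members fell and none rose (11.8%, against 6.77% of all peaks, 1.84% of them lower), with a median of -0.71 against 0.10. They were at Il2ra (4), Il7r (3) and Il2rb (1). The peak 51.2 kb upstream of Il7r read 5.87, 5.37 and 5.54 in Tconv and 3.75 and 4.93 in the kept Tconv + Treg libraries, both below, a change of -1.63 (SE 0.37, adjusted p = 0.0119). The Il7r peak 34.5 kb upstream fell by 1.76 (SE 0.43), the Il2rb peak 7.3 kb upstream by 1.74 (SE 0.37, adjusted p = 0.00731), and the Il2ra TSS peak by 1.55 (SE 0.30, adjusted p = 0.00439), from 4.96, 4.42 and 4.55 to 3.25 and 2.69. With all 18 HP1α libraries 7 fell (7.79% of all peaks were called), these 4 peaks among them. Both kept libraries were shallow, and the count was 3 with depth as a covariate, 13 with DESeq2 and 14 with the replicate block. It was 0 without replicate 1 of HP1α WT Tconv + Treg and 3 without replicate 1 of HP1α WT Tconv. Over all 3 libraries of each group, summed cell markers moved in the same comparison without overlap. Effector markers stood at 7.18 to 7.82 with Treg and 8.0 to 8.48 without, and naive markers at 8.49 to 8.68 and 8.94 to 9.12. The Treg markers Ikzf2 and Ctla4 stood at 7.21 to 8.01 and 6.45 to 7.14 (7.09 to 7.15 in HP1α WT naive cells). The part of these markers in the result was not tested.

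In KO cells exposed to Treg, the single kept HP1α library gave no call against HP1α KO Tconv (0.548% of all peaks, 10 members at an unadjusted p below 0.05, none by DESeq2, 2 with the replicate number as a block). With all 18 libraries 2 were called, both lower and at Il2ra (1.45% of all peaks), a count that was 22 without replicate 1 of KO Tconv + Treg, the library kept by the study, 1 without replicate 2 and 0 without replicate 3. In HP1γ KO, 4 members fell and 2 rose (8.82%, against 8.15% of all peaks, 2.06% lower and 6.1% higher), with a median of -0.42 against -0.02. Those that fell were the Il2rb peak 7.3 kb upstream (-1.45, SE 0.29, adjusted p = 0.00287), the Il7r peaks 93.3 kb (-1.20) and 51.2 kb upstream (-1.01, SE 0.31, adjusted p = 0.0359), and an Il21r peak 37.9 kb downstream (-1.17, adjusted p = 0.0452). All 20 Il7r peaks had a negative value. The count of 6 was 15 without replicate 2 of KO Tconv + Treg, 2 without its replicate 1, 3 without replicate 1 of KO Tconv and 0 when only these groups were fitted, and no Il7r peak was called without replicate 1 of either group. The summed Treg markers Ikzf2 and Ctla4 stood at 7.85 to 7.98 with Treg and 6.98 to 7.61 without (7.04 to 7.25 in HP1γ KO naive cells). The myeloid marker Itgam stood at -0.08 to 0.40 and 0.53 to 1.71. The part of these markers in the result was not tested. The 2 that rose were small peaks in the last Il2ra exon, described below.

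The third comparison, KO against WT, asked what loss of each HP1 protein did. Before the graft no member was called: in naive cells 0 of 68 were called for HP1α (0.00559% of all peaks, 0 members at an unadjusted p below 0.05, none by DESeq2) and 0 for HP1γ (0.14% of all peaks, 2 members at an unadjusted p below 0.05, 2 by DESeq2). At the peak 51.2 kb upstream of Il7r, for instance, HP1γ WT naive libraries read 5.63, 5.78 and 5.78 and KO libraries 5.56, 5.70 and 5.77.

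For HP1α, no member was called in Tconv either (0.021% of all peaks, 2 members at an unadjusted p below 0.05, none by DESeq2). In Tconv + Treg 1 was called, the Il2ra TSS peak (1.47%, against 1.63% of all peaks, 0.218% higher). The single kept KO library read 4.52 and the WT libraries 3.25 and 2.69 (log2 fold change 1.34, SE 0.33, adjusted p = 0.0474). With all 18 libraries the ranges overlapped, the value was 1.06 (SE 0.42, adjusted p = 0.309) and no member was called (0.741% of all peaks were). On the kept libraries the count was also 0 with depth as a covariate, with only the groups compared and without either WT library, while it was 4 with library size alone, 3 with loess offsets, and 5 with DESeq2 and with the replicate block. Called or not, 55 of 68 members had a positive value, with a median of 0.46 against -0.11 for all peaks, and 15 had an unadjusted p below 0.05. With all 18 libraries 58 were positive, the median was 0.41 against -0.07, and 9 had such a p. Il7r, which is on a gene list that the study drew in part from these libraries, had 19 of 20 peaks positive and a median of 0.81 (0.70 with all 18 libraries), none of them called. Its peak 51.2 kb upstream read 5.51 in the kept KO library and 3.75 and 4.93 in WT (1.51, SE 0.41, adjusted p = 0.0705). The libraries left out read 4.43 and 4.62 in KO and 2.88 in WT, so that with all 18 the ranges overlapped (1.39, SE 0.45, adjusted p = 0.189). Summed naive markers stood at 8.88 to 9.09 in the 3 KO libraries and 8.49 to 8.68 in the 3 WT libraries, and their part was not tested.

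For HP1γ, most calls in graft cells were of peaks lower in KO than in WT, a few at Il2ra in Tconv and more in Tconv + Treg, at every gene but Il21r. In Tconv 3 members fell, all at Il2ra, and none rose (4.41%, against 3.35% of all peaks, 1.66% lower), and the count was 0 without replicate 3 of KO Tconv and 1 without replicate 2 of WT Tconv. In Tconv + Treg 15 fell and 2 rose (25.0%, against 11.9% of all peaks, of which 5.38% were lower and 6.48% higher), with a member median of -0.55 against -0.02. The 15 were at Il7r (8 of 20), Il2ra (4 of 16), Il4ra (2 of 8) and Il2rb (1 of 8), and none of the 17 Il21r peaks was called. The count of calls, 17 here, was 18 with the replicate number as a block. It was 5 without replicate 1 of KO Tconv + Treg, 3 without replicate 2 of WT Tconv + Treg, and 7 when the fit held only these 2 groups. At Il7r the 8 calls became 2 without that KO library and 0 without that WT library, while all 20 values stayed negative in both. In the same cases the 4 lower Il2ra calls became 2 and the Il2rb and Il4ra calls became 0, and the Il4ra calls were also 0 without replicate 3 of WT Tconv + Treg. The peaks of a gene share libraries, so a common sign over the 20 Il7r peaks is not 20 independent results.

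At Il7r all 20 peaks had a negative value in HP1γ KO Tconv + Treg, with a median of -1.06, and in 12 every KO library lay below every WT library (16.4% of all peaks did so). The peak 51.2 kb upstream (chr15:9579891-9582410) read 5.36, 6.11 and 5.62 in WT and 3.05, 5.26 and 4.27 in KO. The KO libraries spread over more than 2 log2 units but did not overlap WT (-1.25, SE 0.32, adjusted p = 0.0101). In Tconv the same peak read 5.94, 6.18 and 5.86 in WT and 5.64, 5.31 and 5.43 in KO, lower in all KO libraries without a call. The peak 34.5 kb upstream (chr15:9563721-9565150) read 3.60, 4.16 and 3.54 in WT and 1.59, 3.14 and 2.80 in KO (-1.18, SE 0.28, adjusted p = 0.00693). The others called were 93.3 kb (-1.30), 70.1 kb (-1.28), 47.8 kb (-1.17), 40.2 kb (-1.01) and 37.7 kb (-1.23) upstream and 5.9 kb downstream (-1.10). The TSS peak had the smallest p of the gene, 5.84, 6.12 and 5.71 in WT against 4.71, 5.29 and 4.55 in KO, but its value of -1.0 (SE 0.17, adjusted p = 0.000903) fell just short of the fold threshold.

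At Il2ra the peak 6.5 kb upstream read 4.67, 4.71 and 3.72 in WT Tconv against 3.69, 3.22 and 2.86 in KO (-1.16, SE 0.24, adjusted p = 0.00915), and 3.57, 4.0 and 4.23 against 1.78, 2.72 and 2.49 with Treg (-1.53, SE 0.30, adjusted p = 0.00242). KO was lower in all libraries of both settings. The peak 19.2 kb upstream changed by -1.49 in Tconv (SE 0.28, adjusted p = 0.00523) and by -1.54 with Treg (SE 0.41, adjusted p = 0.0147), and a 260-bp peak in intron 1, 7.2 kb downstream, by -1.18 and -1.44. The peak 16.8 kb downstream was called with Treg (-1.35, SE 0.26, adjusted p = 0.00213). Of the intron 1 peaks that opened from naive cells to Tconv, the one 7.2 kb downstream was thus among the calls. The one shown above, 2.7 kb downstream, was not, at -0.46 in Tconv (adjusted p = 0.192) and -0.38 with Treg (adjusted p = 0.229).

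The 2 members that were higher in HP1γ KO Tconv + Treg lay at the other end of Il2ra, in its last exon and nearer to Il15ra. The peak 48.5 kb downstream (chr2:11696031-11696290) read -1.45, -1.18 and -1.09 in WT and 0.92, -0.46 and 1.49 in KO (2.16, SE 0.51, adjusted p = 0.00501). The peak 47.6 kb downstream (chr2:11695131-11695380) read -1.45, -1.03 and -0.71 in WT and 0.86, -1.11 and 0.40 in KO, where 1 KO library lay within the WT range (1.47, SE 0.43, adjusted p = 0.0207). Both were weak, on 9 to 18 reads per library in WT and 24 to 109 in KO, and only 1 of them was called without replicate 1 or 2 of WT Tconv + Treg or without replicate 1 of KO Tconv + Treg. Against KO Tconv, 1 was called without replicate 1 or 3 of KO Tconv + Treg or replicate 1 of KO Tconv, and 0 without replicate 3 of KO Tconv.

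At Il2rb only the peak 7.3 kb upstream (chr15:78386071-78387550) was called in HP1γ KO Tconv + Treg, at 3.13, 3.98 and 3.21 in WT and 1.35, 2.63 and 2.51 in KO (-1.28, SE 0.31, adjusted p = 0.0078). No KO library reached the WT range. The TSS peak did not follow it (0.26, SE 0.10, adjusted p = 0.0735). At Il4ra the peak 9.9 kb upstream (-1.02, SE 0.32, adjusted p = 0.0297) and the peak 23.1 kb downstream over exon 10 (-1.15, SE 0.36, adjusted p = 0.031) were called, although the libraries of the first overlapped between KO and WT. The 10420-bp peak shared by Il4ra and Il21r (chr7:125174741-125185160) read 6.89, 7.21 and 6.98 in WT and 6.42, 6.60 and 6.74 in KO, a small difference with a small p (-0.43, SE 0.09, adjusted p = 0.00384). At Il21r the TSS peak was not called (0.08, SE 0.13, adjusted p = 0.673).

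**Figure D3:**
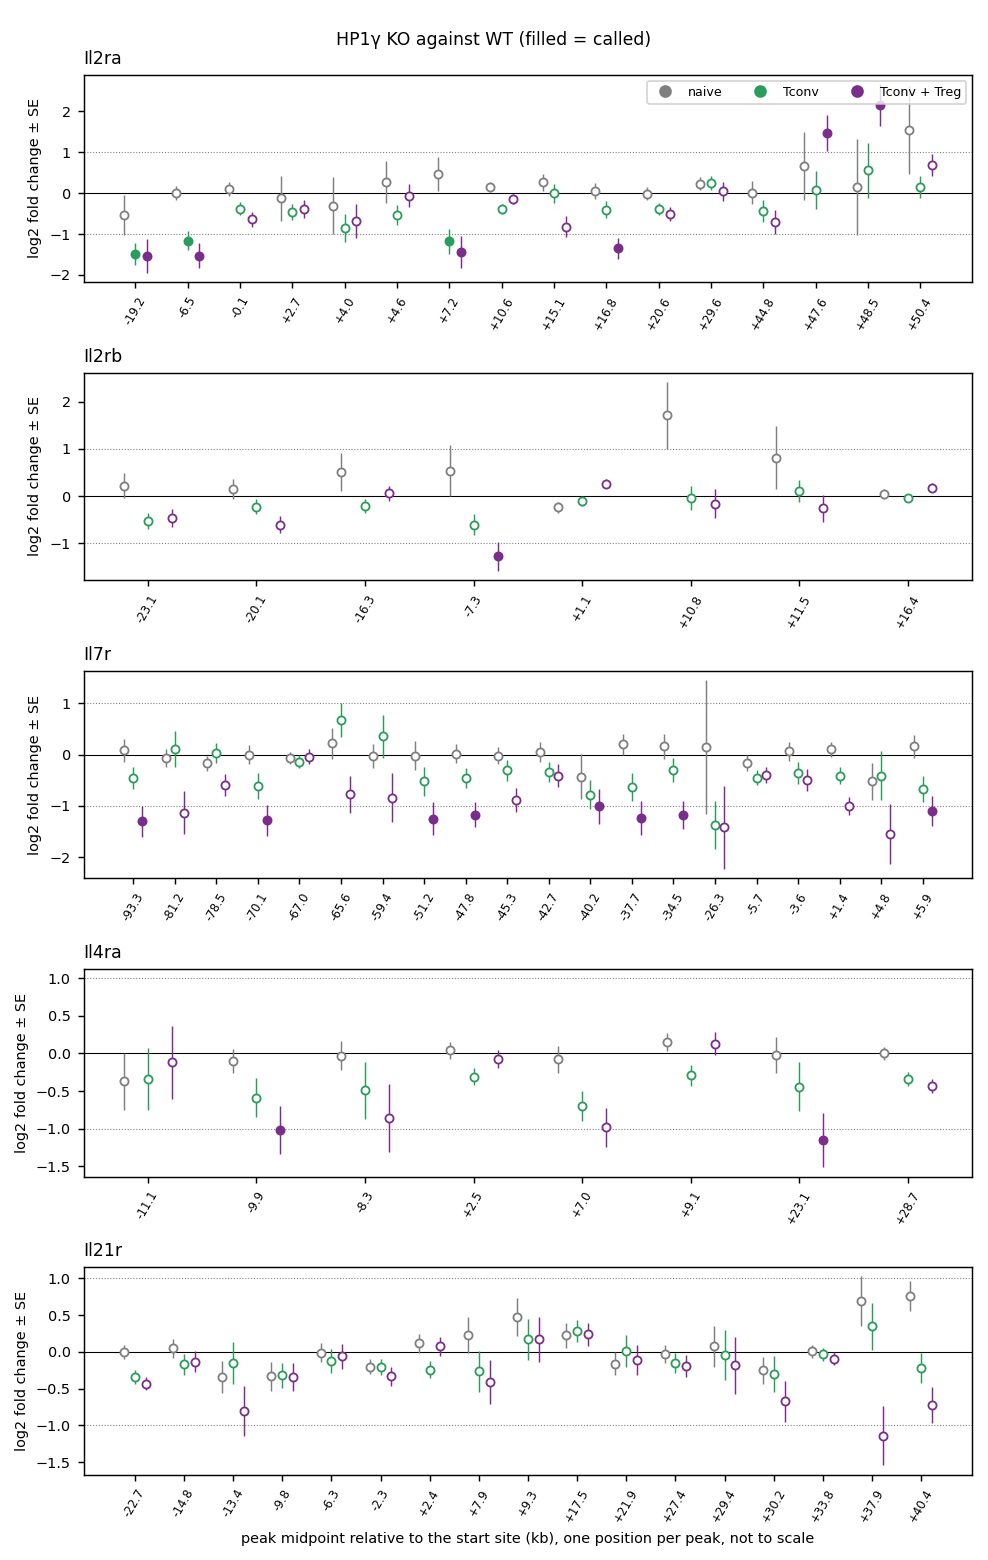
Log2 fold change of HP1γ KO over WT (vertical axis, bars are SE) at each member peak in naive cells, Tconv and Tconv + Treg. Filled symbols passed the call. In naive cells no peak was called and values ran from -0.54 to 1.71, the highest at a weak Il2rb peak 10.8 kb downstream, and with Treg all 20 Il7r peaks lie below 0.

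**Figure D4:**
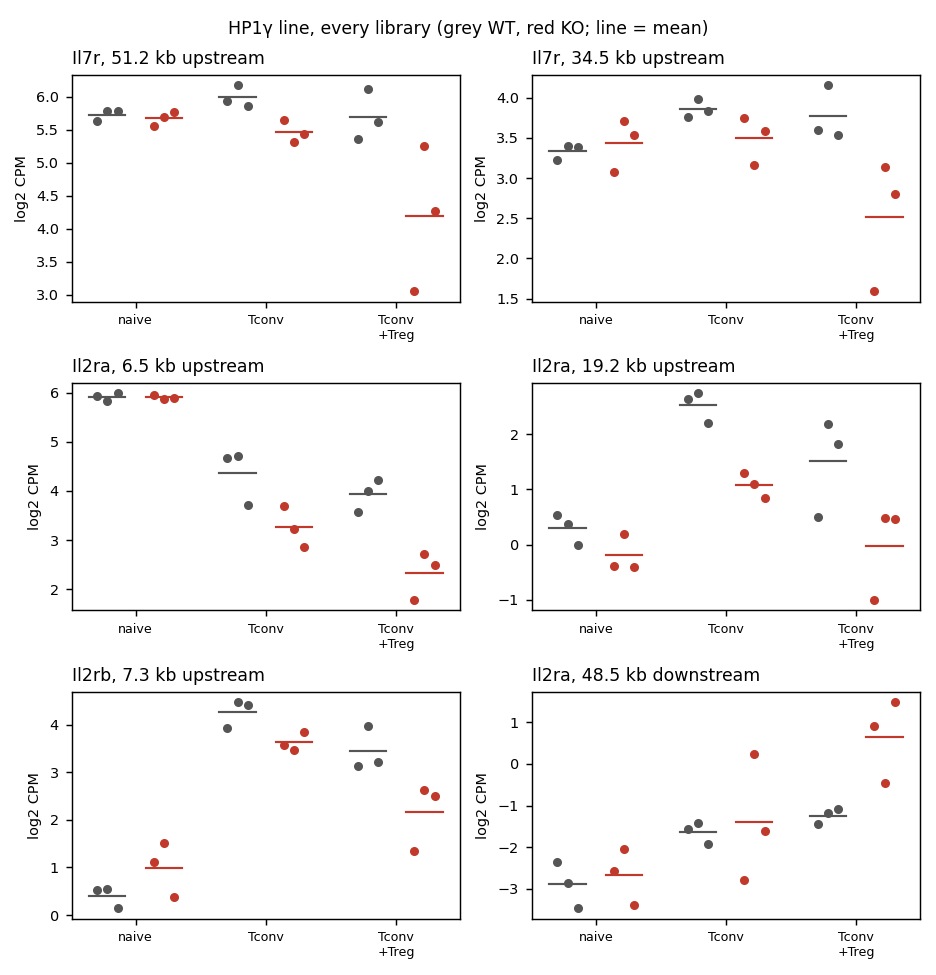
Accessibility (log2 CPM, vertical axis) of 6 member peaks in every HP1γ-line library, by group, WT and KO side by side, with a point per library and a line at the mean. At the Il7r peaks 51.2 and 34.5 kb upstream, KO Tconv + Treg libraries lie below WT (3.05 to 5.26 against 5.36 to 6.11 at the first).

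Other cell markers moved with this comparison. The summed level of the Treg markers Ikzf2 and Ctla4 was 7.85 to 7.98 in HP1γ KO Tconv + Treg and 6.85 to 7.19 in WT. Foxp3 had no TSS peak. The same sum was 7.04 to 7.25 in KO and 6.81 to 7.01 in WT naive cells, so it was not confined to cells exposed to Treg. Without Treg it was 6.98 to 7.61 in KO and 6.66 to 7.23 in WT Tconv. Also without Treg, naive markers stood at 9.06 to 9.18 in KO and 9.2 to 9.32 in WT, and Cd8b1 at 2.29 to 2.5 in KO and 1.44 to 2.13 in WT. The only myeloid marker with a TSS peak, Itgam, stood with Treg at -0.08 to 0.40 in KO and 1.06 to 1.65 in WT. There the naive markers (8.90 to 9.17 against 9.04 to 9.26) and effector markers (8.26 to 8.34 against 8.0 to 8.58) overlapped. Their part in the result was not tested. In a bulk library, fewer cells with an open site and less opening per cell cannot be told apart.

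The difference in the response to Treg between KO and WT was tested directly as an interaction. No member was called in either line by edgeR or DESeq2 (0.0461% of all peaks for HP1α and 0.0014% for HP1γ), with 10 members at an unadjusted p below 0.05 for HP1α and 11 for HP1γ. The member medians of KO against WT were 0.02 in Tconv and 0.46 with Treg for HP1α, and -0.31 and -0.55 for HP1γ. The Tconv libraries served this test, the comparison with naive cells and the Treg comparison, so the results of these are not independent of each other. The opposite signs in the 2 lines were not tested against each other, since the lines were fitted apart.

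The rest of the pathway was taken as 21 genes with 188 nearest peaks: related receptor chains, ligands, transducers and inhibitors. From naive cells to Tconv in WT, 49 of these rose and 32 fell in the HP1α line (43.1%, against 42.5% of all peaks). In the HP1γ line 48 rose and 44 fell (48.9%, against 46.5%). Of the 6 ligand genes 5 opened at their TSS, Il4 by 4.96 and 5.87 in the HP1α and HP1γ lines, Il21 by 3.67 and 2.91, Il7 by 3.05 and 3.67, Il15 by 2.55 and 2.47, and Il2 by 2.35 and 2.64. Il9 had no TSS peak, and of its 4 nearest peaks 1 rose and 2 fell in the HP1α line and 3 fell in the HP1γ line. The TSS peaks of the feedback inhibitors Cish (2.02 and 2.49) and Socs2 (2.14 and 2.67), both known as STAT5 targets, rose as well. The TSS peaks of Il2rg (-0.36 and 0.09), Jak1 (-0.22 and 0.29) and Jak3 (0.07 and 0.38) were not called, nor were those of the 4 STAT genes, Socs1 and Socs3.

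In HP1γ KO Tconv + Treg against WT, 9 of the 188 rose and 6 fell (7.98%, against 11.9% of all peaks). The Il21 TSS peak rose by 1.46 (SE 0.20, adjusted p = 0.000179), with 4 of the 18 Il21 peaks higher and 1 lower. Of the 11 Stat3 peaks 2 rose, and 1 of the 2 Il13ra1 peaks rose. Of the 7 Socs2 peaks 2 fell, as did 2 of the 45 Jak1 peaks and 1 of the 7 Il2 peaks. The Il2rg TSS peak was not called (0.04, SE 0.12). Of the 7 Il15ra peaks 2 rose, and both are the Il2ra exon peaks already described. In HP1α WT cells exposed to Treg 6 of the 188 rose and 8 fell (7.45%, against 6.77% of all peaks), of which 3 of 7 Socs2 peaks, 2 of 7 Il2 peaks and 1 peak each at Cish, Stat5a and Stat5b fell, and 5 of 18 Il21 peaks and the single Il7 peak rose.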

How the data were processed

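ATAC-seq libraries from 36 samples in 12 groups of 3 were analysed. Per the labels and the study's methods, the authors trimmed reads (Trim Galore 0.6.7), aligned them with BWA-MEM, removed blacklisted regions and duplicates, called open regions per sample with HMMRATAC, merged them (bedtools), and counted reads per region with featureCounts 2.0.3. The deposited values are raw counts per region on GRCm39, so wide regions collect more reads and merged regions can hold several sites. Of 71512 intervals, 3 of zero width were dropped. No per-sample column was left unused (0).

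Counts were tested with edgeR 4.0.16 (filterByExpr, TMM, quasi-likelihood F test, Benjamini-Hochberg over all peaks), in a fit of 15 HP1α libraries, without the 3 that the study left out, and a fit of 18 HP1γ libraries, 1 coefficient per group. SE is the log2 fold change divided by the root of F. Where a group held a single library, its spread was taken from the other groups. The coefficient of variation between libraries in the fits was 26.6% (HP1α) and 22.2% (HP1γ). Levels are log2 CPM with a prior count of 2. The fits were tested on simulated counts for KO against WT in Tconv alone, which does not cover the comparisons with Tconv + Treg. R 4.3.3, DESeq2 1.42.0, limma 3.58.1 and Python 3.11.15 were also used. Intervals and counts cover sequencing and library spread only.

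Named peaks were the TSS peak and the most accessible other peak of each gene, every member called in KO against WT or in an interaction, and up to 3 called peaks per gene with the smallest p in other comparisons. A few others were named after their values were seen. The members and lists were chosen with earlier results of these data known.

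Same-numbered replicates deviated together (every correlation over 0.1) for HP1α KO against WT in naive cells (0.25 to 0.50), HP1γ KO against WT in Tconv + Treg (0.15 to 0.32) and HP1γ WT Tconv + Treg against Tconv (0.20 to 0.29), a pairing read from the data and not stated by the labels. Alternatives were another scaling, DESeq2, no filter, a replicate block, depth as a covariate, only the groups compared, all 18 HP1α libraries and leaving out each library. The earlier edgeR quasi-likelihood method, block with depth, and all libraries with depth or with 1 left out were added after seeing the data.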

Additional observations from a re-analysis of the deposited data

Results flagged for a closer look

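At the Il4ra TSS peak every HP1α WT Tconv library lay below every naive library (log2 fold change -0.28), whereas every HP1γ WT Tconv library lay above every naive one (0.25). At the Il21r peak 40.4 kb downstream of the TSS (chr7:125242601-125243570), every HP1γ KO library lay above WT in naive cells (0.76, adjusted p = 0.186) and every one lay below WT in Tconv + Treg (-0.72, adjusted p = 0.0412). Neither difference between settings was itself tested, and none of the 4 values passed the call.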

How the results depend on the processing

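Of 2143 alternative values of the 134 member results called in the main fits, 1931 kept their direction and call, 212 fell short of the threshold and 0 reversed. The 134 were picked because they were called, and the losses were uneven. Without replicate 1 of HP1α WT Tconv + Treg 0 were kept and 9 fell short. Without replicate 2 of HP1γ WT Tconv + Treg 3 were kept and 14 fell short, and without replicate 1 of HP1γ KO Tconv + Treg 7 and 16. Counts of members called moved by over 1.5 times as follows; the cause was not tested. HP1α KO against WT in Tconv + Treg (1 as reported) gave 4 with library size alone, 3 with loess offsets, 5 with DESeq2, 5 with the replicate block, and 0 with depth as a covariate, with only the groups compared, with all 18 HP1α libraries and with these and depth. HP1α WT Tconv + Treg against Tconv (8) gave 4 within 10 kb of the gene, 13 with DESeq2, 14 with the block, 3 with depth and 5 with all libraries and depth. HP1α KO Tconv + Treg against Tconv (0) gave 2 with the block, with block and depth, and with all 18 libraries. HP1γ KO against WT gave 2 by DESeq2 in naive cells (0 as reported). In Tconv (3) it gave 5 on adjusted p alone, 2 by the earlier method and 1 with only the groups compared. In Tconv + Treg (17) it gave 26 on adjusted p alone, 9 within 10 kb and 7 with only the groups compared. HP1γ KO Tconv + Treg against Tconv (6) gave 17 on adjusted p alone, 2 by the earlier method and 0 with only the groups compared, and its split of 2 higher and 4 lower became 1 and 4 with library size alone. On adjusted p alone, Tconv against naive gave 41 and 42 in HP1α WT and KO and 44 and 42 in HP1γ WT and KO. Other scaling moved the median of all peaks by over 0.1, most with library size alone in HP1α WT Tconv against naive (-0.032 became 0.166).

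Leaving out 1 library at a time gave 0 to 0 for HP1α KO against WT in naive cells, in Tconv and in Tconv + Treg, 0 to 10 for HP1α WT Tconv + Treg against Tconv, 0 to 0 for the same in KO, 20 to 27 and 22 to 24 for HP1α Tconv against naive in WT and KO, and 0 to 0 for the HP1α interaction. For HP1γ it gave 0 to 0 in naive cells, 0 to 5 in Tconv (0 without KO Tconv replicate 3, 1 without WT Tconv replicate 2), 3 to 20 in Tconv + Treg, 0 to 2 and 2 to 15 for Tconv + Treg against Tconv in WT and KO (15 without KO Tconv + Treg replicate 2, 2 without replicate 1, 3 without KO Tconv replicate 1), 24 to 25 and 20 to 28 for Tconv against naive, and 0 to 1 for the interaction. Among all 18 HP1α libraries, leaving out 1 gave 0 for KO against WT in Tconv + Treg, 0 to 6 for WT Tconv + Treg against Tconv, and 0 to 22 for KO, the highest without replicate 1 of KO Tconv + Treg. Where the replicates deviated together, the replicate block gave 18 calls in place of 17 for HP1γ KO against WT in Tconv + Treg and 0, as without it, in the other two comparisons. Elsewhere not every correlation was over 0.1, as with 0.07 to 0.54 for HP1γ KO against WT in Tconv. That does not exclude a pairing, on which the labels are silent. Results in the HP1α Tconv + Treg groups are limited by the low depth of the kept WT libraries (12.7 and 1.49 M reads). In KO they are limited by the single library kept, of 50.7 M reads.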
